A study of Mus musculus with 12 samples.

Results

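The genes described here are those that make cholesterol and fatty acids and the regulators that switch them. They were taken from a list of 33 gene symbols: 5 sterol sensors and SREBP regulators, 8 genes of the mevalonate steps, 3 from squalene to lanosterol, 8 from lanosterol to cholesterol, 5 for transport, storage and the LXR side, and 4 for fatty acid synthesis. A gene was represented by the brightest over 12 arrays of the probe sets whose annotation names that gene alone. This gave values for 31 of the 33 members among 18193 genes in all. Acat2, a thiolase at the start of the pathway, and Soat1, which esterifies cholesterol for storage, were not analysed here. Of the 31 members, 12 had 1 probe set and 19 had more.

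Cholesterol is built from acetyl-CoA through mevalonate, isoprenoid pyrophosphates, squalene and lanosterol. When membranes of the endoplasmic reticulum are poor in sterol, Scap carries the SREBP transcription factors to the Golgi for cleavage, and the released fragments switch on most genes of the pathway; Insig proteins hold Scap back when sterol is plentiful. Oxysterols activate the LXR receptors, which raise cholesterol export and lower uptake, and macrophages, which take up much cholesterol with dead cells, rely on both arms.

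The series holds 12 Affymetrix arrays of total RNA from primary bone marrow cultures of female C57BL/6 mice aged 6 weeks. There are 4 groups of 3 arrays: cells labelled as c-kit+ (stem) or as CD44+ (stromal), each from cultures given 17β-estradiol at 1 nM for 1 week or from untreated control cultures. No genetic change is named for any group, and the way the fractions were separated is not stated in the labels. The surface proteins they are named for are a growth factor receptor (c-kit) and a hyaluronan receptor (CD44). The labels number the replicates but do not say whether they came from separate cultures or animals, so p-values measure only the spread between these samples, which may be technical. RNA is from bulk cells, in which fewer cells of a type and less RNA per cell cannot be told apart.

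The labels were set against marker genes. Kit itself ranged from 3.88 to 4.08 on the log2 scale over the 6 arrays labelled c-kit+ and from 3.79 to 4.22 on the CD44+ arrays, near the highest value of 3 Y-linked genes in these female mice, 3.83. Of 8 macrophage genes, Csf1r ranged from 13.86 to 14.11 and Adgre1 from 13.00 to 13.74, while Itgam ranged from 6.24 to 8.07 and C1qa stood at 8.54 on c-kit+ control replicate 3; the mean of the 8 lay between 11.34 and 11.95 on every array. Cd44 ranged from 11.76 to 12.46 over both fractions. The mean of 8 stromal genes lay between 5.42 and 6.33 on the c-kit+ arrays and between 7.06 and 8.39 on the CD44+ arrays. The fractions are therefore called by their labels only. An RNA quality measure, the 3′ minus 5′ difference of the Gapdh control probe sets, ran from 4.23 to 6.17 on the c-kit+ arrays and from 2.83 to 4.31 on the CD44+ arrays, with its lowest value on CD44+ control replicate 3. The number of arrays limits the precision.

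All 31 members had mean log2 values clear of that background, from 6.63 for Ggps1, which makes geranylgeranyl pyrophosphate for protein prenylation, to 12.60 for Hmgcs1, which makes the HMG-CoA that enters the pathway. Values of different probe sets depend on their sequences and are not compared between genes.

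Promoters of the members that the results turn on are printed here because sterol-responsive genes are usually switched through short motifs just upstream of their starts. Each is the 250 bases before the start in RefSeq's GRCm38.p6, written 5′ to 3′ on the + strand. Capitals mark matches, on either strand, to the sterol regulatory element core TCACNCCA, the NF-Y box CCAAT and the E-box CACGTG. Read on the opposite strand the NF-Y box is ATTGG. Insig1 lies on chromosome 5 from 28071412 to 28078662 with its window at chr5:28071162-28071411, Mylip on chromosome 13 from 45389742 to 45411940 with its window at chr13:45389492-45389741, and Hmgcs1 on chromosome 13 from 119690351 to 119708260 with its window at chr13:119690101-119690350.
Insig1: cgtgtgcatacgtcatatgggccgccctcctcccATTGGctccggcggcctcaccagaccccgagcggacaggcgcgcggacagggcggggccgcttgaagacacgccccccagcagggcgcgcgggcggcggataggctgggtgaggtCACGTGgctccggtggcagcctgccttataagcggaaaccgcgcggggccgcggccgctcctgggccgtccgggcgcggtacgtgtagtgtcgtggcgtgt
Mylip: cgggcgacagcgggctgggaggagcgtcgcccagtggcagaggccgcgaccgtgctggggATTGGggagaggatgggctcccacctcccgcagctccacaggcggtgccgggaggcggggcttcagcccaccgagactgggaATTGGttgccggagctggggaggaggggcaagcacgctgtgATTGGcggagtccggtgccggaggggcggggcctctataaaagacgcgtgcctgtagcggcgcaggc
Hmgcs1: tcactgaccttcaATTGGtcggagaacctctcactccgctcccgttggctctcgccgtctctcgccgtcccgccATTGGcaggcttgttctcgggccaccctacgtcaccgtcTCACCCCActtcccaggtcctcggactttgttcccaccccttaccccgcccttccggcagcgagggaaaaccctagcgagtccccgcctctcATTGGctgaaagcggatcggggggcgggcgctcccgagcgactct
The Insig1 window held 1 NF-Y box and 1 E-box, the Mylip window 3 NF-Y boxes, and the Hmgcs1 window 3 NF-Y boxes and 1 match to the sterol regulatory element core. The printed matches do not overlap each other. Windows were found for 28 of the 33 listed members, 37 windows in all; there were none for Fdps, Fdft1, Sqle, Stard4 and Npc1. The NF-Y box was in 62.2% of the member windows against 33.8% of 32851 windows of the same length. The sterol regulatory element core was in 8.11% of the member windows (those of Hmgcs1, Msmo1 and Srebf2) against 3.67% of all, and the E-box in 13.5% (Insig1, Dhcr7, Hsd17b7, Sc5d and Scap) against 6.02%. A match describes letters only, and some members have more than 1 window.

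The first question was whether estradiol changed these genes. Averaged over both fractions, 2 of the 31 members rose and none fell: Insig1, an anchor that keeps Scap in the endoplasmic reticulum and is itself a target of SREBPs, and Mylip, an LXR target that encodes a ubiquitin ligase (Idol) that lowers lipoprotein uptake. Genes that rose in this comparison made up 0.863% of all genes tested, and those that changed in either direction 0.951% (173 of 18193). The other 29 members did not pass, with mean effects between -0.15 and 0.38 on the log2 scale. In neither fraction alone did a member pass.

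Insig1 stood at 9.96, 9.53 and 10.13 on the 3 c-kit+ control arrays and at 10.90, 10.83 and 10.34 on the c-kit+ estradiol arrays. In the CD44+ fraction it stood at 9.95, 9.40 and 8.82 in control and at 10.07, 10.48 and 10.31 in estradiol cultures. Every estradiol array lay above every control array of its fraction, by a narrow margin in both, and CD44+ control replicate 3 was the lowest of all 12. The difference was 0.81 (SE 0.25, 1.76-fold) in c-kit+ and 0.90 (SE 0.25, 1.87-fold) in CD44+ cells, and neither passed (adjusted p = 0.58 and 0.34, limma). The mean effect over both fractions was 0.86 (SE 0.18, 95% interval 0.47 to 1.24, 1.81-fold) with an adjusted p of 0.040 in limma, and it was higher in 6 of 6 estradiol arrays. This call depended on the arrays and settings: over 22 alternatives its adjusted p ran from 0.00109 to 0.138, it passed in 12, and it was lost in 9 of the 12 fits that left out an array. Those 9 arrays were c-kit+ control replicates 1 and 2, c-kit+ estradiol 1 and 2, CD44+ control 2 and 3 and all 3 CD44+ estradiol replicates; the mean effect stayed between 0.71 and 1.00 in all 12 fits.

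Mylip varied less. It stood at 11.12, 11.12 and 10.94 on c-kit+ control arrays and at 11.29, 11.53 and 11.64 on c-kit+ estradiol arrays. On CD44+ arrays it stood at 10.64, 10.70 and 10.54 in control and at 11.02, 11.11 and 11.14 in estradiol cultures. The estradiol arrays were again above all control arrays of their fraction, and CD44+ estradiol arrays reached the level of c-kit+ control arrays. The effect was 0.43 (SE 0.11, adjusted p = 0.30) in c-kit+ and 0.46 (SE 0.11, adjusted p = 0.16) in CD44+ cells, and the mean effect was 0.44 (SE 0.08, 95% interval 0.28 to 0.61, 1.36-fold, adjusted p = 0.013, limma), higher in 6 of 6 estradiol arrays. Over the alternatives its adjusted p ran from 0.00362 to 0.0891, and it passed in 20 of 22, but not after quantile normalization nor without CD44+ estradiol replicate 3 (0.0503). Insig1 and Mylip were the only members with all estradiol arrays above the control arrays in both fractions, as were 1.49% of all genes. Both genes have 1 probe set each.

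**Figure D1:**
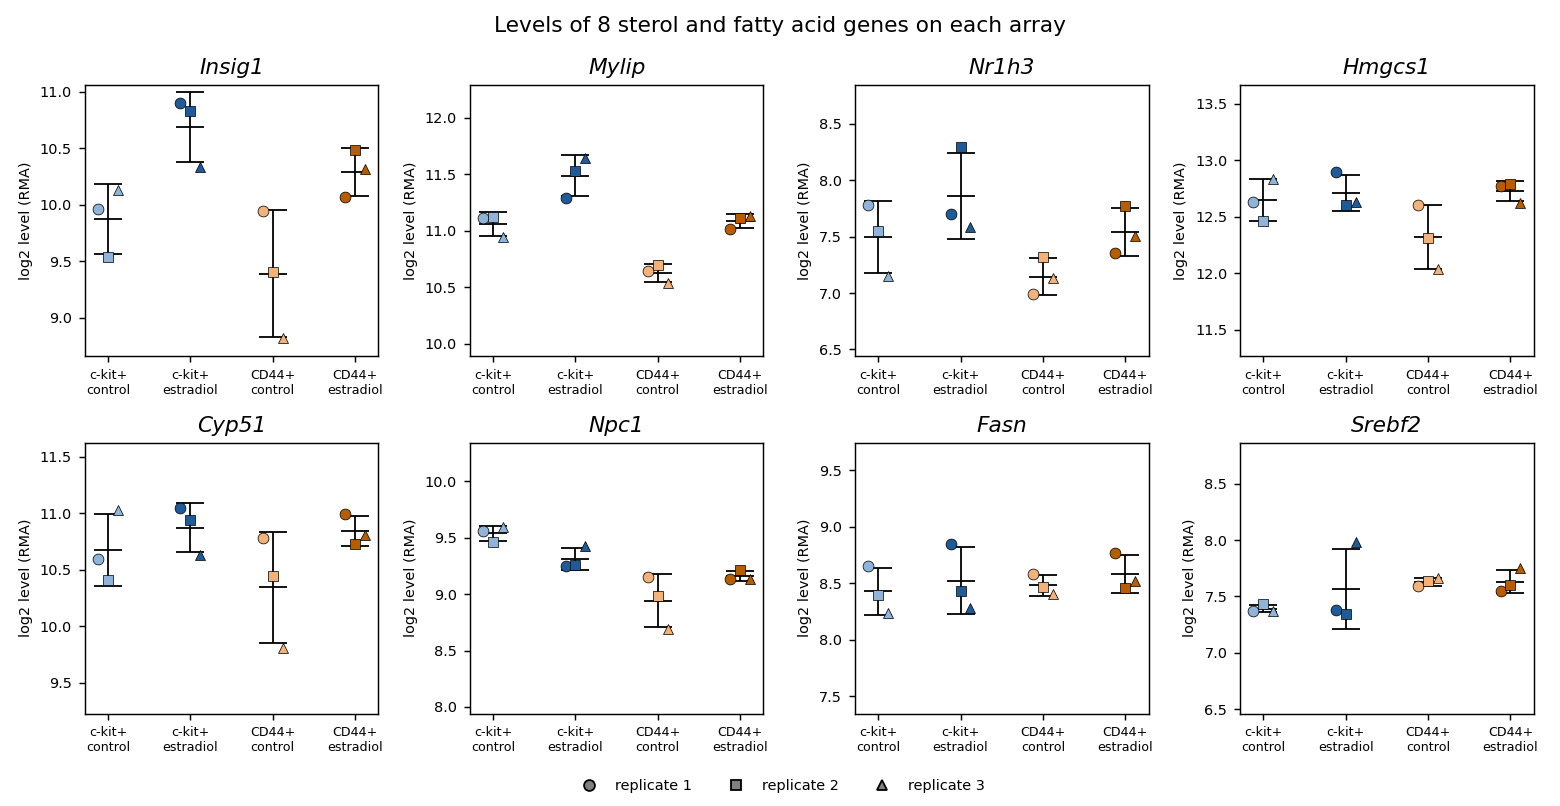
Log2 RMA levels (y axis, each panel its own range) of 8 members in the 4 groups (x axis). Symbols are single arrays, circles, squares and triangles for replicates 1, 2 and 3, and the bars give the mean and 1 SD of 3 arrays. Insig1 and Mylip stand higher on every estradiol array than on the control arrays of the same fraction, whereas Fasn and Cyp51 overlap in both fractions. Npc1 is higher on c-kit+ control arrays (9.46 to 9.59) than on CD44+ control arrays (8.69 to 9.15).

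Nr1h3, which encodes the oxysterol receptor LXRα, stood at 7.78, 7.55 and 7.15 on c-kit+ control arrays and at 7.70, 8.30 and 7.58 with estradiol. On CD44+ arrays it stood at 6.99, 7.32 and 7.13 in control and at 7.35, 7.77 and 7.50 in estradiol cultures. The CD44+ groups did not overlap, by a margin far below the spread within them, and the c-kit+ groups did. Its mean effect was 0.38 (SE 0.14, adjusted p = 0.48, limma), the largest difference of the members after Insig1 and Mylip. Mvd, the decarboxylase that makes isopentenyl pyrophosphate, had a mean effect of 0.22 (SE 0.08, adjusted p = 0.46).

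Among the transcription factors, Srebf2, which encodes the SREBP that mainly drives cholesterol synthesis, lay between 7.37 and 7.43 on c-kit+ control arrays and at 7.38, 7.35 and 7.98 on c-kit+ estradiol arrays, where replicate 3 alone was high. In CD44+ cells its effect was 0.00 (95% interval -0.31 to 0.31). Srebf1, whose product mainly drives fatty acid synthesis, had a mean effect of 0.11 (95% interval -0.19 to 0.41). Scap and Insig2, the second Insig gene, had mean effects of -0.03 (95% interval -0.27 to 0.20) and 0.07 (-0.19 to 0.32).

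In c-kit+ cells none of the 31 members passed the test in limma, in which 0.181% of all genes did (33). At an unadjusted p below 0.05 there were 3 (Mylip, Insig1 and Mvd), or 3 of 31 against 4.47% of all genes. Estradiol arrays were all above control arrays for the same 3 genes (5.34% of all genes) and all below for Npc1, which moves cholesterol out of lysosomes (2.47%). Npc1 stood at 9.56, 9.46 and 9.59 in c-kit+ control and at 9.25, 9.25 and 9.43 in c-kit+ estradiol cultures, a difference of -0.23 (SE 0.12, adjusted p = 1.00). The median difference of the members was 0.07 against 0.02 over all genes, with 19 of 31 above 0 (61.3% against 55.1% of all genes). It was 0.001 with 16 above 0 without c-kit+ control replicate 3, and 0.15 with 23 above 0 without c-kit+ control replicate 1.

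In CD44+ cells none of the 31 members passed in limma either, in which 0.291% of all genes did (53). Here 6 members had an unadjusted p below 0.05 (5.38% of all genes): Mylip, Insig1, Hmgcs1, Sc5d, Idi1 and Cyp51. Hmgcs1 stood at 12.61, 12.32 and 12.04 on CD44+ control arrays and at 12.77, 12.79 and 12.62 on CD44+ estradiol arrays, a difference of 0.41 (SE 0.15, adjusted p = 0.69). Sc5d, a sterol desaturase of the last steps, stood at 9.47, 9.23 and 8.99 in control and at 9.49, 9.62 and 9.57 in estradiol cultures, a difference of 0.33 (SE 0.13, adjusted p = 0.75). For both genes the highest control array nearly reached the lowest estradiol array, and control replicate 3 was the lowest. Without that array the differences were 0.27 for Hmgcs1 and 0.21 for Sc5d, and Hmgcs1 had 0.75 when its probe sets were averaged. Estradiol arrays were all above control arrays for 7 members (6.75% of all genes), those named except Cyp51 plus Nr1h3 and Stard4, a carrier of cholesterol through the cytosol, and all below for none (5.92%). With array weights in the fit, which gave calls for 1405 genes, Hmgcs1, Idi1, Insig1, Mylip and Sc5d passed.

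The median difference of the members in CD44+ cells was 0.15 against 0.01 over all genes, and 26 of 31 lay above 0 (83.9% against 53.2%). All 31 members lie at or above the median level of all genes, and among such genes 67.3% lay above 0. Without CD44+ control replicate 3, 20 of 31 members lay above 0 and their median was 0.06; after quantile normalization 18 lay above 0 and the median was 0.04, beside 42.7% and -0.02 over all genes. On CD44+ control replicate 3, 10 of the 18 measured enzymes from Hmgcs1 to Dhcr7 had their lowest level of all 12 arrays, with a median deviation of -0.29 from their means, and on c-kit+ control replicate 3 another 5 did. The median deviation of all genes was -0.024 and -0.039 on these arrays. The share of all genes lowest there was not computed, so the count cannot be called particular to these enzymes. With the Gapdh measure as a covariate, a fit chosen after seeing the data, 26 of 31 members lay above 0 in CD44+ cells. Their median was 0.14, with Insig1 at 0.88, Hmgcs1 at 0.40 and Sc5d at 0.32, close to the values without it. The measure stood at 4.14, 3.94 and 2.83 on CD44+ control and at 4.31, 3.32 and 3.50 on CD44+ estradiol arrays. With groups this alike the covariate could move their difference little, so the part of RNA quality was not tested by this fit.

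**Figure D2:**
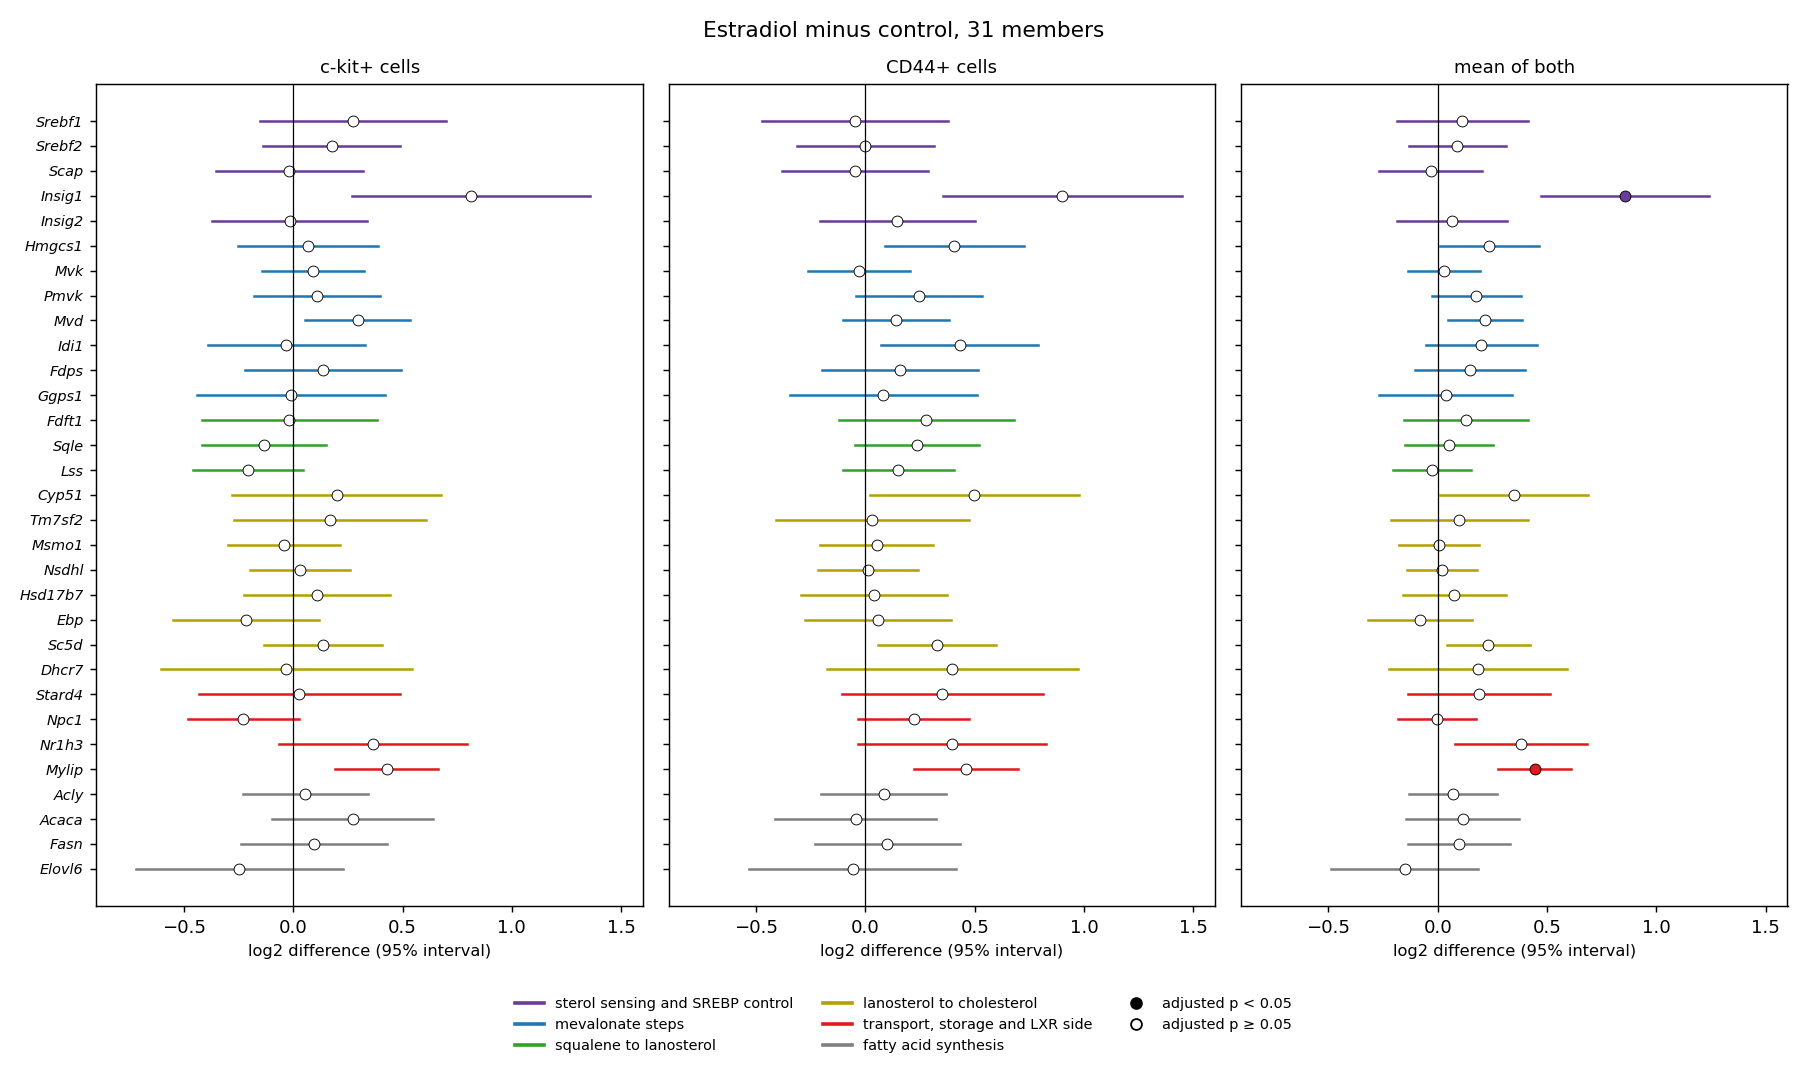
Estradiol minus control on the log2 scale (x axis) for the 31 measured members in pathway order (y axis), in c-kit+ cells, in CD44+ cells and as the mean of both. Points are limma estimates, lines their 95% intervals, colours the roles, and filled points passed an adjusted p of 0.05. Only Insig1 (0.86) and Mylip (0.44) are filled, both in the panel of the mean.

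By role, the 7 measured mevalonate genes had mean effects from 0.03 (Mvk, the first kinase) to 0.24 (Hmgcs1), with none passing. The 3 genes from squalene to lanosterol lay on opposite sides of 0 in the 2 fractions: Fdft1 (squalene synthase), Sqle (the epoxidase) and Lss (the cyclase) had differences from -0.21 to -0.02 in c-kit+ cells and from 0.15 to 0.28 in CD44+ cells. The 95% interval of each of these differences included 0. Other probe sets went both ways in c-kit+ and CD44+ cells, such as one of Fdft1 (-0.43 and 0.32) and one of Lss (0.21 and -0.3). The 8 genes from lanosterol to cholesterol had mean effects from -0.08 (Ebp, a sterol isomerase) to 0.35 (Cyp51, the lanosterol demethylase). Cyp51 stood at 10.59, 10.40 and 11.03 in c-kit+ control and at 11.04, 10.95 and 10.63 in c-kit+ estradiol cultures, and at 10.78, 10.45 and 9.81 in CD44+ control and 10.99, 10.73 and 10.80 in CD44+ estradiol cultures. Its groups overlapped in both fractions, and its mean effect had a 95% interval of 0.01 to 0.69 and an adjusted p of 0.68 (limma).

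The fatty acid genes showed no common direction. Acly, which makes cytosolic acetyl-CoA from citrate, had a mean effect of 0.07 (95% interval -0.13 to 0.27), Acaca, the carboxylase, 0.11 (-0.15 to 0.37), and Fasn, the synthase, 0.10 (-0.14 to 0.33). Elovl6, which lengthens the palmitate that Fasn makes, had -0.15 (-0.49 to 0.18).

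Whether the fractions differed in their response was tested as the difference of the effects, CD44+ minus c-kit+. No member and no gene passed in limma (0% of 18193 genes), and 296 genes (1.63%) had an unadjusted p below 0.05. The members of smallest p were Npc1 (0.45, SE 0.17), Lss (0.36, SE 0.17), Sqle (0.37, SE 0.18) and Idi1 (0.46, SE 0.24), all with an adjusted p of 1.00. Insig1 and Mylip had differences of effects within their errors, 0.09 (95% interval -0.69 to 0.86) and 0.03 (-0.30 to 0.37).

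Genes of inflammation moved in the same cultures. All 5 of the inflammatory genes listed (Il6, Il12b, Cxcl10, Ptgs2 and Il1b) rose with estradiol in both fractions, by 1.14 to 2.66 in c-kit+ and by 1.33 to 2.37 in CD44+ cells on the log2 scale. All 5 passed in each fraction (limma), against 0.181% of all genes in c-kit+ and 0.291% in CD44+ cells. The genes were listed with earlier results of these data known, so their count and separation are no independent test. Their mean level per array lay between 7.60 and 8.11 in control and between 9.42 and 9.95 in estradiol cultures, so those groups did not overlap. Of 8 macrophage genes, 1 (Cd14, 0.43, adjusted p = 0.015 for the mean effect, limma) rose, against 0.863% of all genes. The mean level of the 8 ran from 11.34 to 11.68 on control and from 11.45 to 11.95 on estradiol arrays. None of 8 stromal genes passed for the mean effect, with a median of 0.39. Against 55.7% of all genes, 7 of the 8 stromal genes lay above 0, up to 0.78 for Pdgfrb. Their mean level lay between 5.53 and 5.87 on control and between 5.42 and 6.33 on estradiol arrays of c-kit+ cells, and between 7.06 and 8.05 and between 7.45 and 8.39 in CD44+ cells. The part of these inflammatory, macrophage and stromal genes in the changes of Insig1 and Mylip was not tested.

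Other genes of the same pathways were also read. Of 17 other SREBP-linked lipid genes 16 were measured, and none passed for estradiol in either fraction, for the difference of effects or on average. For the mean effect 0.951% of all genes passed. In it 13 of the 16 lay above 0 (81.3%), against 55.7% of all genes. For the mean effect the 2 of smallest p were Acacb (0.18, SE 0.08, adjusted p = 0.67), an acetyl-CoA carboxylase, and Acss2 (0.27, SE 0.13, adjusted p = 0.76), which makes acetyl-CoA from acetate. Of 14 LXR and oxysterol genes 12 were measured and none passed for estradiol, with 9 of 12 above 0 for the mean effect (75%). Abca1, the LXR-driven cholesterol exporter, had a mean effect of 0.26 (SE 0.11, adjusted p = 0.64), and Ch25h, which makes an oxysterol, 0.31 (SE 0.15, adjusted p = 0.76).

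**Figure D3:**
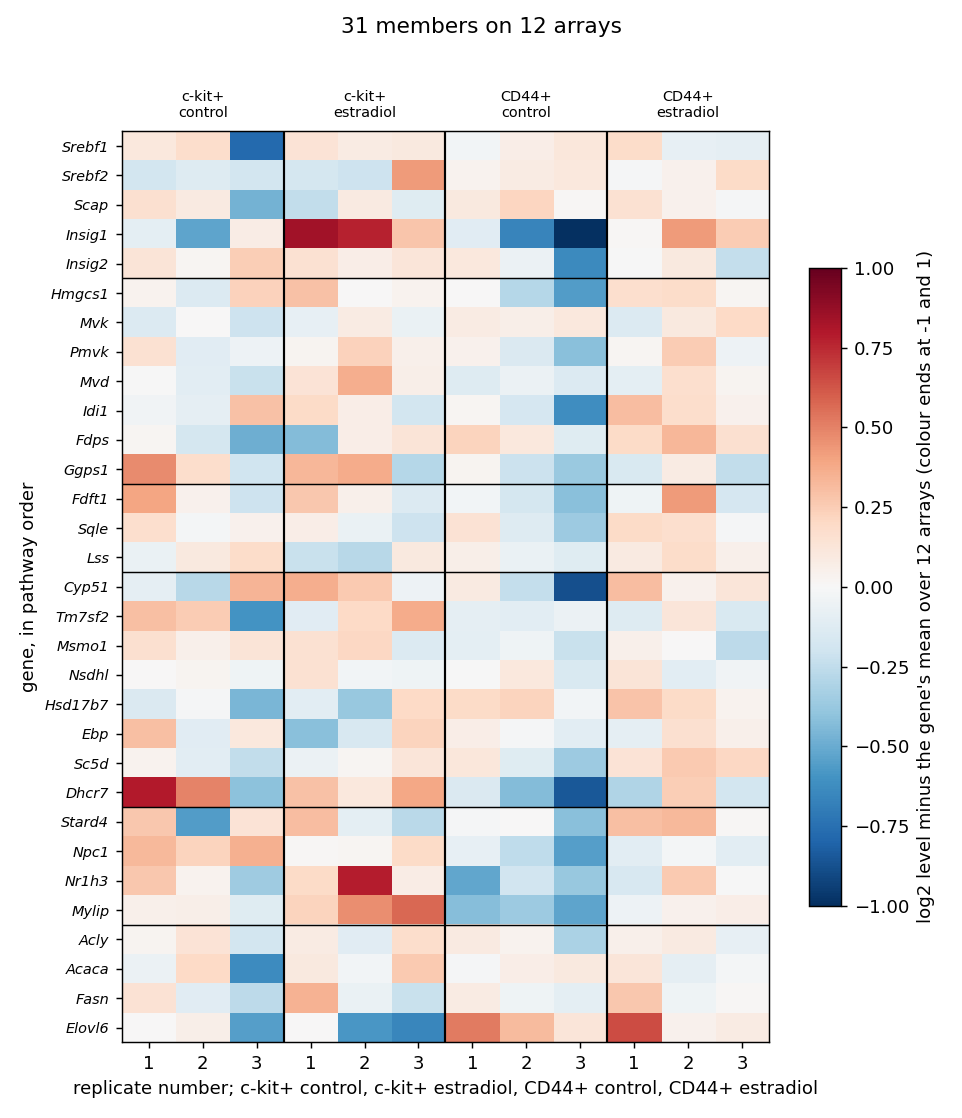
Log2 level of each measured member (y axis, in pathway order with lines between roles) on each of 12 arrays (x axis, replicate numbers within the 4 groups), as the difference from that gene's mean over the arrays. Colours end at -1 and 1, and 1 value, Insig1 on CD44+ control replicate 3, lies beyond at -1.24. CD44+ control replicate 3 is blue for most cholesterol enzymes, 10 of 18 of which are lowest there. The share of all genes lowest on that array was not computed.

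The second question was how the fractions differed without estradiol. In control cultures 1 of the 31 members was higher in the arrays labelled c-kit+ than in the CD44+ arrays, and none was lower: Npc1. Members passing in either direction can be set against 2.3% of all genes (418), of which those higher made up 0.539%. These control arrays also enter the estradiol comparisons, so the results are not independent of each other.

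Npc1 stood at 9.56, 9.46 and 9.59 on c-kit+ control arrays and at 9.15, 8.98 and 8.69 on CD44+ control arrays. The groups did not overlap. The difference was 0.60 (SE 0.12, 95% interval 0.34 to 0.85, 1.51-fold, adjusted p = 0.017, limma), c-kit+ higher in 3 of 3 arrays. In estradiol cultures the c-kit+ arrays (9.25, 9.25 and 9.43) still lay above the CD44+ arrays (9.13, 9.21 and 9.13), but by 0.15 (SE 0.12, adjusted p = 0.83). The control call was lost without CD44+ control replicate 3 (0.47, adjusted p = 0.065), without c-kit+ control replicate 1 (0.59, adjusted p = 0.066), with the Gapdh measure as a covariate (0.55, adjusted p = 0.16), without both control replicates 3 (0.44, adjusted p = 0.11) and in a fit of the 6 control arrays alone (adjusted p = 0.13). Over 20 alternatives its adjusted p ran from 0.00284 to 0.83 and it passed in 13.

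Mylip was higher in c-kit+ cells by 0.43 in control cultures (SE 0.11, adjusted p = 0.062, limma) and by 0.40 in estradiol cultures (SE 0.11, adjusted p = 0.089), just short of the threshold in each, with no overlap between fractions in either. Averaged over both cultures the difference was 0.42 (SE 0.08, adjusted p = 0.0048). Over 20 alternatives to the control comparison the Mylip difference ran from 0.28 to 0.53 and its adjusted p from 0.0048 to 0.317 (limma). It passed in 5 of them, but not with the Gapdh measure as a covariate. Dhcr7, the reductase of the last step to cholesterol, stood at 9.72, 9.43 and 8.52 on c-kit+ control and at 8.79, 8.50 and 8.08 on CD44+ control arrays, a difference of 0.77 (SE 0.27, adjusted p = 0.19). The spread within each group was wide, and c-kit+ control replicate 3 lay among the CD44+ arrays. Without that array the difference was 1.12 and passed (adjusted p = 0.0084), as it did with array weights (0.98, adjusted p = 0.0055) and without both control replicates 3 (0.93, adjusted p = 0.029), in 3 of 20 alternatives in all.

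Elovl6 pointed the other way. It stood at 7.25, 7.30 and 6.69 on c-kit+ control arrays and at 7.76, 7.56 and 7.36 on CD44+ control arrays, a difference of -0.48 (SE 0.22, adjusted p = 0.36, limma). In estradiol cultures it stood at 7.25, 6.66 and 6.59 on c-kit+ and at 7.89, 7.29 and 7.33 on CD44+ arrays, a difference of -0.67 (SE 0.22, adjusted p = 0.20). With the replicate number as a block over all 12 arrays, this difference passed (adjusted p = 0.017, limma). The estradiol arrays of the fractions met the rule for pairs, but the block also took in groups that did not. The labels name no pairs, so this is not a paired test. Every CD44+ array lay above every c-kit+ array of the same culture, and the average difference of -0.58 (SE 0.15) passed (adjusted p = 0.045). In control cultures it also passed with the Gapdh measure as a covariate (-1.06, adjusted p = 0.0086), while it was -0.29 without c-kit+ control replicate 3 and -0.19 with the mean of its probe sets; it passed in 3 of 20 alternatives. Averaged in this way 3 of 31 members passed, Npc1 (0.37, adjusted p = 0.016), Mylip and Elovl6, against 6.11% of all genes (1112).

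Over the whole list, 3 members (Npc1, Mylip and Msmo1, a methylsterol oxidase) had all c-kit+ control arrays above the CD44+ control arrays, against 7.41% of genes, and 3 (Elovl6, Mvk and Srebf2) all below, against 8.33%. The median difference was 0.11 against 0.01 over all genes, and 21 of 31 lay above 0 (67.7% against 51.1%). Among genes at or above the median level, where all 31 members lie, 64.8% lay above 0 with a median of 0.09. Centring each array on its median moved the median of all genes to 0.10 and that of the members to 0.21, and quantile normalization moved the members to -0.02 with 14 of 31 above 0, beside -0.02 and 45.4% over all genes. In estradiol cultures no member passed in limma without the replicate block (2.65% of genes did, 483), and Elovl6 passed with it; 2 members had an unadjusted p below 0.05 (9.77% of genes) and the median was 0.03.

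**Figure D4:**
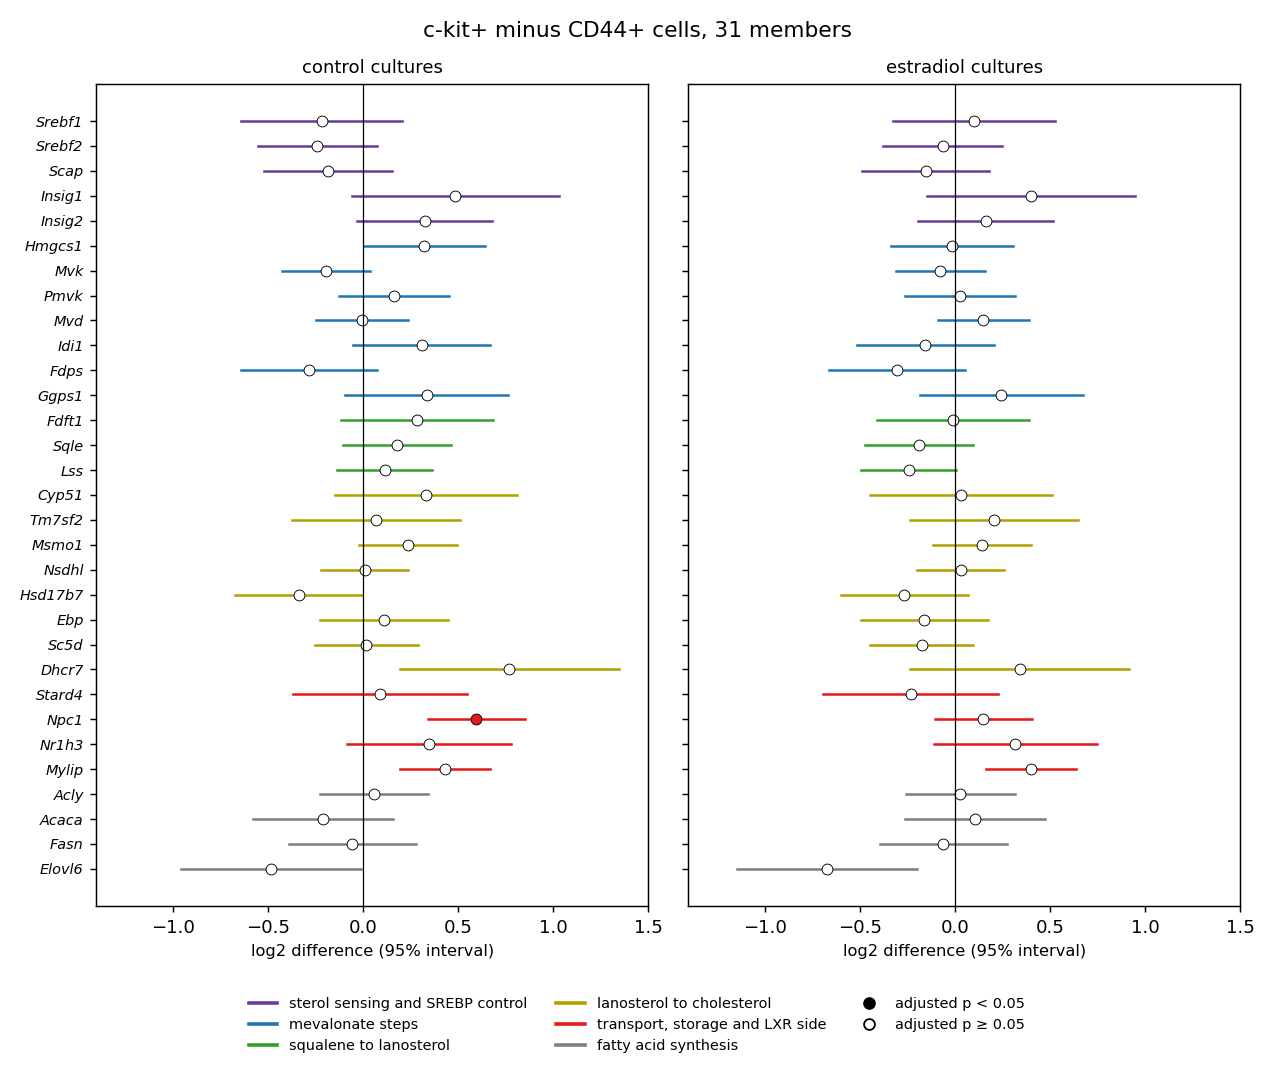
c-kit+ minus CD44+ cells on the log2 scale (x axis) for the 31 measured members (y axis), in control and in estradiol cultures. Points are limma estimates, lines their 95% intervals, colours the roles, and the filled point passed an adjusted p of 0.05. Npc1 is filled in control cultures (0.60) and lies at 0.15 in estradiol cultures, while Mylip (0.43 and 0.40) and Elovl6 (-0.48 and -0.67) keep their sides.

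Scd1, the main fatty acid desaturase under SREBP control, was lower on the c-kit+ arrays, at 5.62, 4.93 and 5.61 against 7.62, 6.42 and 7.24 on CD44+ control arrays. The difference was -1.71 (SE 0.32, adjusted p = 0.011, limma), CD44+ being 3.27-fold higher. Fads2, another desaturase, had a difference of -0.78 (SE 0.16, adjusted p = 0.018). These were 2 of 16 measured SREBP-linked genes, against 2.3% of all genes passing in either direction in control cultures.

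On the LXR side, 2 of 12 genes were higher in c-kit+ control cultures, against 0.539% of all genes, and none was lower. Abca1 stood at 10.55, 10.47 and 10.60 on c-kit+ and at 9.31, 9.76 and 9.54 on CD44+ control arrays, a difference of 1.01 (SE 0.16, adjusted p = 0.0035, limma). Apoe, the apolipoprotein that carries exported cholesterol, was higher by 0.72 (SE 0.12, adjusted p = 0.0065). Both also differed in estradiol cultures, by 0.86 and 0.59 (adjusted p = 0.0069 and 0.020).

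Marker genes moved with the fraction in the same arrays. Of 8 stromal genes 6 were lower on c-kit+ control arrays, against 2.3% of all genes passing in either direction, with differences of -3.37 for Col1a2 and -3.09 for Col3a1 on the log2 scale. Of 8 macrophage genes 2 were higher on c-kit+ control arrays, against 0.539% of all genes (Mrc1 by 0.66 and Fcgr1 by 0.71). The list did not move as a whole, with 6 of 8 above 0 (75% against 51.1% of all genes). Itgam went the other way (-0.35), all its c-kit+ control arrays lying below the CD44+ control arrays, as for 8.33% of all genes. C1qa was also lower on average (9.99 against 10.19), with c-kit+ control replicate 3 at 8.54. Cd68, another macrophage marker, ranged from 12.43 to 12.87 over all arrays. Of 6 measured adipocyte genes, Adipoq, Lep and Cidec lay between 3.07 and 3.82 on every array, near background. Retn lay between 5.21 and 5.75, Fabp4 between 9.51 and 11.85, and Lpl between 13.77 and 14.13. The part of stromal and macrophage content in the differences of Npc1, Mylip, Elovl6, Scd1, Abca1 and Apoe was not tested.

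How members varied together was read within groups, so that neither treatment nor fraction enters. Each array's deviation from its group mean was correlated with that of Insig1 over 12 arrays, 30 relations in all, with exact two-sided p-values from 1296 permutations within groups. The permutations treat the arrays of each group as exchangeable independently of the other groups, and take no account of same-numbered arrays of different groups deviating together. The members most like Insig1 were Hmgcs1 (Pearson's r = 0.84, permutation p = 0.026; Spearman's rho = 0.79, permutation p = 0.029), Cyp51 (r = 0.84, permutation p = 0.031; rho = 0.77, permutation p = 0.035) and Idi1, the isopentenyl isomerase (r = 0.81, permutation p = 0.030; rho = 0.82, permutation p = 0.021). Sqle followed (r = 0.80, permutation p = 0.038; rho = 0.71, permutation p = 0.059). These 4 are enzymes of the cholesterol pathway, but its other enzymes did not run with Insig1 as a set. Their r ran from -0.36 for Tm7sf2 and -0.28 for Hsd17b7 to 0.74 for Pmvk. It was near 0 for Mvk (-0.03), Lss (0.01) and Fdps (0.04). Srebf1 and Srebf2 had an r of -0.46 and -0.47.

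With Insig2 (r = 0.76) and Pmvk, the second mevalonate kinase (r = 0.74), 6 of 30 members (20.0%) reached an r of 0.7, as did 6.56% of all genes. After Benjamini-Hochberg adjustment over the 30 relations no permutation p passed; the lowest adjusted values were 0.185 for r and 0.162 for rho. Without the 2 arrays farthest from the median of Insig1, CD44+ control replicates 3 and 1, r was 0.64 for Hmgcs1, 0.63 for Cyp51, 0.60 for Idi1, 0.51 for Sqle, 0.45 for Pmvk and 0.38 for Insig2. None of the 6 then reached 0.7, so that count rests on these 2 arrays. The group means still held the 2 arrays, and the share of all genes reaching 0.7 without them was not computed. Stard4 had an r of 0.69 (permutation p = 0.037; rho = 0.72, permutation p = 0.050) and an r of 0.72 without them. Among the fatty acid genes r was 0.27 for Fasn, 0.18 for Acly and 0.09 for Elovl6, and 0.15, -0.62 and -0.25 without those arrays. Acaca ran opposite (r = -0.61, permutation p = 0.0069; rho = -0.78, permutation p = 0.0054) and r was -0.80 without those arrays. Mylip, the other gene that rose with estradiol, had an r of -0.17, and the Gapdh measure had an r of 0.41 with Insig1.

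**Figure D5:**
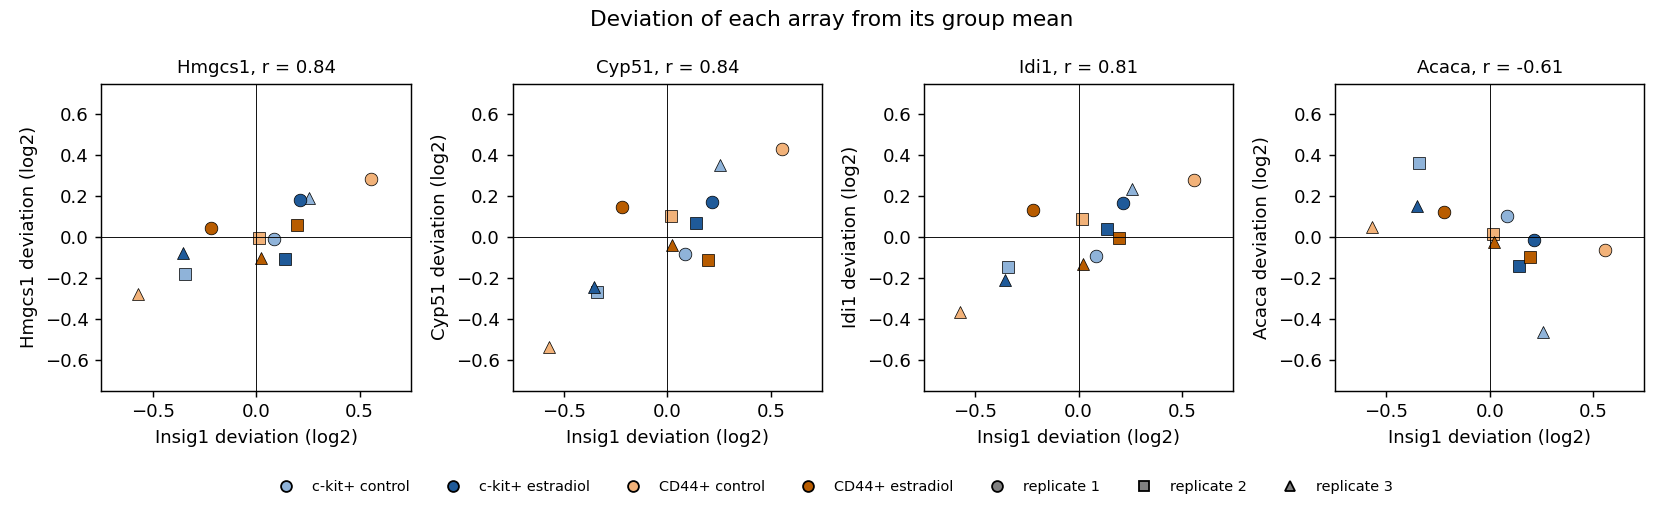
Deviation of each array from its group mean (log2) for Insig1 (x axis) and for Hmgcs1, Cyp51, Idi1 and Acaca (y axes). Each symbol is an array, colours give the group and shapes the replicate number. Hmgcs1, Cyp51 and Idi1 run up with Insig1 (r = 0.84, 0.84 and 0.81), CD44+ control replicates 3 and 1 lie at the ends, and Acaca runs down (r = -0.61).

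Members with more than 1 probe set allowed a check within genes. The other 38 probe sets of 19 members had the same sign as the one used in 27 cases for the mean estradiol effect and in 26 for the fractions in control cultures, and none of them passed when all probe sets were tested. The 4 other probe sets of Hmgcs1 had mean estradiol effects from 0.46 to 0.60 against 0.24 for the one used, the lowest adjusted p among them being 0.23 (limma). Insig1 in that test over all probe sets had an adjusted p of 0.0518 and Mylip of 0.0154.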

How the data were processed

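Total RNA (50 ng per sample, amplified in 2 cycles per the labels) from 12 samples was hybridized to 1-channel Affymetrix arrays. The values used are log2 levels deposited by the authors, made with RMA per the submitters' processing notes, with a version not given in the sources used here. RMA corrects background, quantile-normalizes and summarises probe sets, which pulls array distributions together and compresses low values. Of 45101 probe sets, 34945 named 1 gene in the platform annotation, 932 several and 9160 none, and 64 were controls. Each gene was its probe set of highest mean over the 12 arrays, with no filter on low values.

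The test was limma (version 3.58.1, R 4.3.3), with 1 mean per group over all 12 arrays, empirical Bayes moderation, and Benjamini-Hochberg adjustment over 18193 genes at a threshold of 0.05. Full statistics are given for members that passed and for the 4 of smallest p in each comparison, and for the genes of 2 other pathway lists that passed or had the 2 smallest p; others are named with levels, intervals or counts. The members and lists were chosen with earlier results of these data known.

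Replicate numbers were checked as pairs by correlating deviations from group means. CD44+ control and estradiol arrays met the rule of over 0.1 in each pair (0.303, 0.368 and 0.322), c-kit+ arrays did not (0.345, 0.092 and 0.253), nor did the fractions' control arrays (0.175, 0.122 and -0.208), and the fractions' estradiol arrays did (0.447, 0.192 and 0.312). On simulated data with noise independent between arrays, changes of 0.5 and 1 among 18193 genes were recovered in 28% and 94% of cases for c-kit+ cells, 16% and 94% for CD44+ cells, and 68% and 98% for the mean effect. The simulated data gave 171, 163 and 200 calls in these comparisons, against 33, 53 and 173 in the real data. Fewer calls make the adjusted threshold stricter, so recovery in 1 fraction may be lower than stated. The alternatives were averaging a gene's probe sets, dropping genes below the median level, centring by median, quantile normalization, array weights, robust moderation with a trend, a fit to a comparison's own arrays, the replicate number as a block, a threshold of 0.1, estradiol or averaged cultures for the fractions, and leaving out each array. The Gapdh covariate, leaving out both control replicates 3 together, and the block for the fractions in estradiol cultures were chosen after seeing the data. Promoters came from RefSeq, and Python 3.11.15 with pandas 2.3.3 and matplotlib 3.10.9 drew the figures.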

Additional observations from a re-analysis of the deposited data

How the results depend on the processing

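No member passed in c-kit+ cells, or for the difference of effects, under any alternative run. The Lss difference of effects turned from 0.36 to -0.021 with the mean of its probe sets, the only reversal among the members with full statistics. Array weights gave 5 members and 1405 genes in CD44+ cells, 55 genes in c-kit+ cells, 523 for the mean effect, and 3 members and 1058 genes between the fractions. The replicate block left the number of members called unchanged in the estradiol comparisons and between the fractions in control cultures. It gave 101 genes in CD44+ cells, 62 in c-kit+ cells, 272 for the mean effect and 693 between fractions. Between the fractions in estradiol cultures it gave 1 member (Elovl6) and 662 genes. This block was fitted over all 12 arrays at once and is not a paired test, since by the labels the samples share only a number. At a threshold of 0.1 the genes were 54 in c-kit+ and 88 in CD44+ cells, and between the fractions 2 members and 671 genes. With the 6 arrays alone, c-kit+ cells gave 2 genes, and the fractions 0 members and 196 genes. Quantile normalization (Mylip lost) and median centring (Insig1 lost) each left 1 member for the mean effect. Between the fractions, the mean of probe sets and median centring each gave 2 members, estradiol cultures 0, averaged cultures 3 (1112 genes), and the Gapdh covariate 254 genes. Without both control replicates 3 there were 51 genes in c-kit+ cells and 271 between fractions. Leaving out an array gave 10 to 45 genes in c-kit+ cells, 22 to 76 in CD44+ cells, 0 to 2 members and 104 to 275 genes for the mean effect, and 0 to 3 members and 221 to 456 genes between fractions. The cause of these shifts was not tested, and the fits that leave out arrays also hold fewer samples. Changes of 0.5 were often missed in 1 fraction on simulated data, so small changes of members may lie below what 3 arrays a group can show.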

Other observations

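Averaged over control and estradiol cultures, 2 more lipid genes passed between the fractions, a comparison in which 6.11% of all genes passed (1112). In all, 3 of the 16 SREBP-linked genes and 3 of the 12 LXR and oxysterol genes passed in it. Abcg1, a cholesterol exporter driven by LXR, was higher in the arrays labelled c-kit+ by 0.61 on the log2 scale (SE 0.14, adjusted p = 0.018, limma), and Me1, the malic enzyme that supplies NADPH for fatty acid synthesis, had a difference of -0.40 (SE 0.10, adjusted p = 0.037). Fabp4, a fatty acid carrier of adipocytes and macrophages that was named after its values were seen, was higher on the c-kit+ arrays in control cultures by 1.18 (SE 0.24, adjusted p = 0.022). Cpa3, a mast cell protease also named after its values were seen, stood at 6.31 on c-kit+ estradiol replicate 1 and between 3.73 and 4.19 on the other 11 arrays. It was 1 of 6 measured mast cell genes, and the others did not rise alike on that array. There Tpsb2 (4.32), Hdc (5.63) and Mcpt4 (3.66) did not exceed their other arrays. Fcer1a (3.54) and Ms4a2 (3.95) had their highest values there, but near background. Cd34, a marker of progenitors and of some stromal cells, was lower on the c-kit+ arrays on average, with a difference of -1.35 (SE 0.23, adjusted p = 0.0024).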
